A study of Homo sapiens with 6 samples.

Results

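The genes described here encode the proteins of the cytosolic ribosome. They were taken from a table of gene counts by symbol: RPL or RPS followed by a number, with an optional A, X or L and a further number, plus RPLP0, RPLP1, RPLP2 and RPSA. The rule found 84 genes among the 60709 with values. Of these, 77 are core ribosomal protein genes, 46 of the large and 31 of the small subunit. The other 7 are paralogs, whose symbols end in L or L1. Pseudogenes and the ribosomal protein kinase genes do not match the rule. Ribosomal proteins filed under other names (FAU and RPL36AL among them) do not match it either, and these 2 are given separately.

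The labels describe 6 samples of SH-SY5Y, an established human neuroblastoma line of neuron-like cells. The 3 control wells received 10 uL of DMSO. The 3 treated wells received the same DMSO and 200 uL of a solution in water of Nrf2-peptide-linked fumarate, made from 2 mg of peptide in 600 uL. Cells of both groups were in 2 mL of medium at 80% confluence and were lysed after 5 h, and no matching volume of water is given for the control wells. The labels do not say whether the wells of a group came from separate cultures, and their protocol also lists other additions that were not analysed here.

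The count table has 6 columns, headed Sample 1 to Sample 6. The control samples are labelled Sample 4, 5 and 6, and the treated samples Sample 13, 14 and 15. Columns 4, 5 and 6 were therefore read as control replicates 1, 2 and 3, and columns 1, 2 and 3, which match no label, were not used. No comparison of peptide with control was made, and everything below describes 3 libraries of 1 group without a test. If the column headings were numbered afresh and do not follow the labels, the libraries called controls here could be others of the study.

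The libraries held 8887854 to 11397407 counts. Genes encoded in mitochondrial DNA held 4.11%, 3.83% and 6.25% of them in replicates 1, 2 and 3. Replicate 3 had the fewest counts and the highest mitochondrial share, and it stood apart from the others in a way that followed the GC content of transcripts, as described below. Of 13 markers of noradrenergic neuroblastoma, 12 reached 10 counts in every library, with a summed level of 4426 to 4813 CPM, led by HAND2 (914 CPM) and DBH (799 CPM). CPM are counts per 1000000 of the scaled library total. TH, the rate-limiting enzyme of catecholamine synthesis, was at 0 in every library. Of 6 fibroblast markers, 5 passed the same minimum and summed to 363 to 408 CPM, of which COL3A1 made up 316 CPM. Of the epithelial, blood, endothelial and glial markers, 1 of 4, 0 of 4, 0 of 2 and 1 of 4 passed it.

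Ribosomal proteins are made in step, since each ribosome carries a single copy of nearly all of them. Their mRNAs are known for an unusual start: a C at the cap followed by a run of C and T (U in the RNA), the terminal oligopyrimidine or TOP tract, through which the kinase mTOR and the RNA-binding protein LARP1 control their translation. Transcription of these genes is driven in many cells by MYC proteins, of which MYCN is the one amplified in high-risk neuroblastoma. SH-SY5Y is known as a line without that amplification.

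Transcript starts in the RefSeq annotation of GRCh38.p14 were available for 67 of the 84 genes, 62 core genes and 5 paralogs. The following 30 bases of the sense strand run from 10 before an annotated start, and capitals mark a run of a C followed by at least 4 C or T that begins at the start itself. The first 3 are core genes of high mRNA level, the fourth is a core gene with few counts, and the fifth is the paralog of RPS27. RPL22 and RPL26 are each followed by their paralog, and RPL39 is shown for its long tract. For RPL26L1, 1 of 2 annotated starts is shown.
RPS18 (chr6:33272065-33272094, plus strand): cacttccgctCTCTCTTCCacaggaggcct
RPS27 (chr1:153990752-153990781, plus strand): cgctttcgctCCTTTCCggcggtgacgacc
RPS3 (chr11:75399508-75399537, plus strand): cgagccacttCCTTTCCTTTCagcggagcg
RPS10 (chr6:34426050-34426079, minus strand): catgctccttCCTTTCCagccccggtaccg
RPS27L (chr15:63157458-63157487, minus strand): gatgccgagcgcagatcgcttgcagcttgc
RPL22 (chr1:6199576-6199605, minus strand): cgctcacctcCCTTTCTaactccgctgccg
RPL22L1 (chr3:170870176-170870205, minus strand): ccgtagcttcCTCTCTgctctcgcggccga
RPL26 (chr17:8383174-8383203, minus strand): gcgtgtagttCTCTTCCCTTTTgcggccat
RPL26L1 (chr5:172958719-172958748, plus strand): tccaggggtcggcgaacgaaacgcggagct
RPL39 (chrX:119791611-119791640, minus strand): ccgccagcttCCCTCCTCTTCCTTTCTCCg

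Such a tract began at an annotated start in 46 of the 62 core genes (74.2%) and in 1404 of all 27305 genes with a start in the table (5.14%). Among the 5 paralogs only RPL22L1 had it. Within 5 bases of a start it was found in 53 core genes (85.5%) and in 25.2% of all genes. RPS4X, the core gene with the highest CPM, and RPL17, among those with the lowest, had no such tract within 5 bases of the starts in the table. In the window of 250 bases before to 50 after a start, the letters CGGAAG, searched on both strands, were present in 40 core genes (64.5%) against 22.6% of all genes. The letters TATAAA, also on both strands, were present in 5 core genes (8.06%) against 14.0%. A match describes the letters only, and a gene counted once if any of its starts matched.

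Ribosomal protein mRNA took up 5.63%, 5.70% and 5.23% of all counts in control replicates 1, 2 and 3 (mean 5.52%, SD 0.254, n = 3). The share was lowest in replicate 3, where the mitochondrial share was highest, and the part of that share in the difference was tested only by leaving those genes out. Of nuclear counts alone it was 5.88%, 5.93% and 5.58%, again lowest in replicate 3. In RNA from whole wells, fewer cells of a kind and less RNA per cell cannot be told apart. The large subunit core genes held 3.24%, 3.28% and 3.02% of all counts, the small subunit core genes 2.37%, 2.39% and 2.18%, and the paralogs 0.0315%, 0.0316% and 0.0337%. Both subunits were thus lowest in replicate 3 and the paralogs highest there.

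Of the 84 genes, 82 reached 10 counts in every library. The exceptions were RPL10L, at 0 in all 3, and RPL3L, with 3, 6 and 4 counts. The median of the 84 was 573, 587 and 559 CPM in the 3 libraries, a mean of 573 ± 14.3 CPM, and the median of the 13900 nuclear genes that reached this minimum, the genes tested below, was 31.2 ± 0.326 CPM. The group made up 19 of the 46 such genes at 1000 CPM or more and 48 of the 196 at 500 CPM or more. Among the 100 genes of highest CPM, 30 were ribosomal protein genes.

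**Figure D1:**
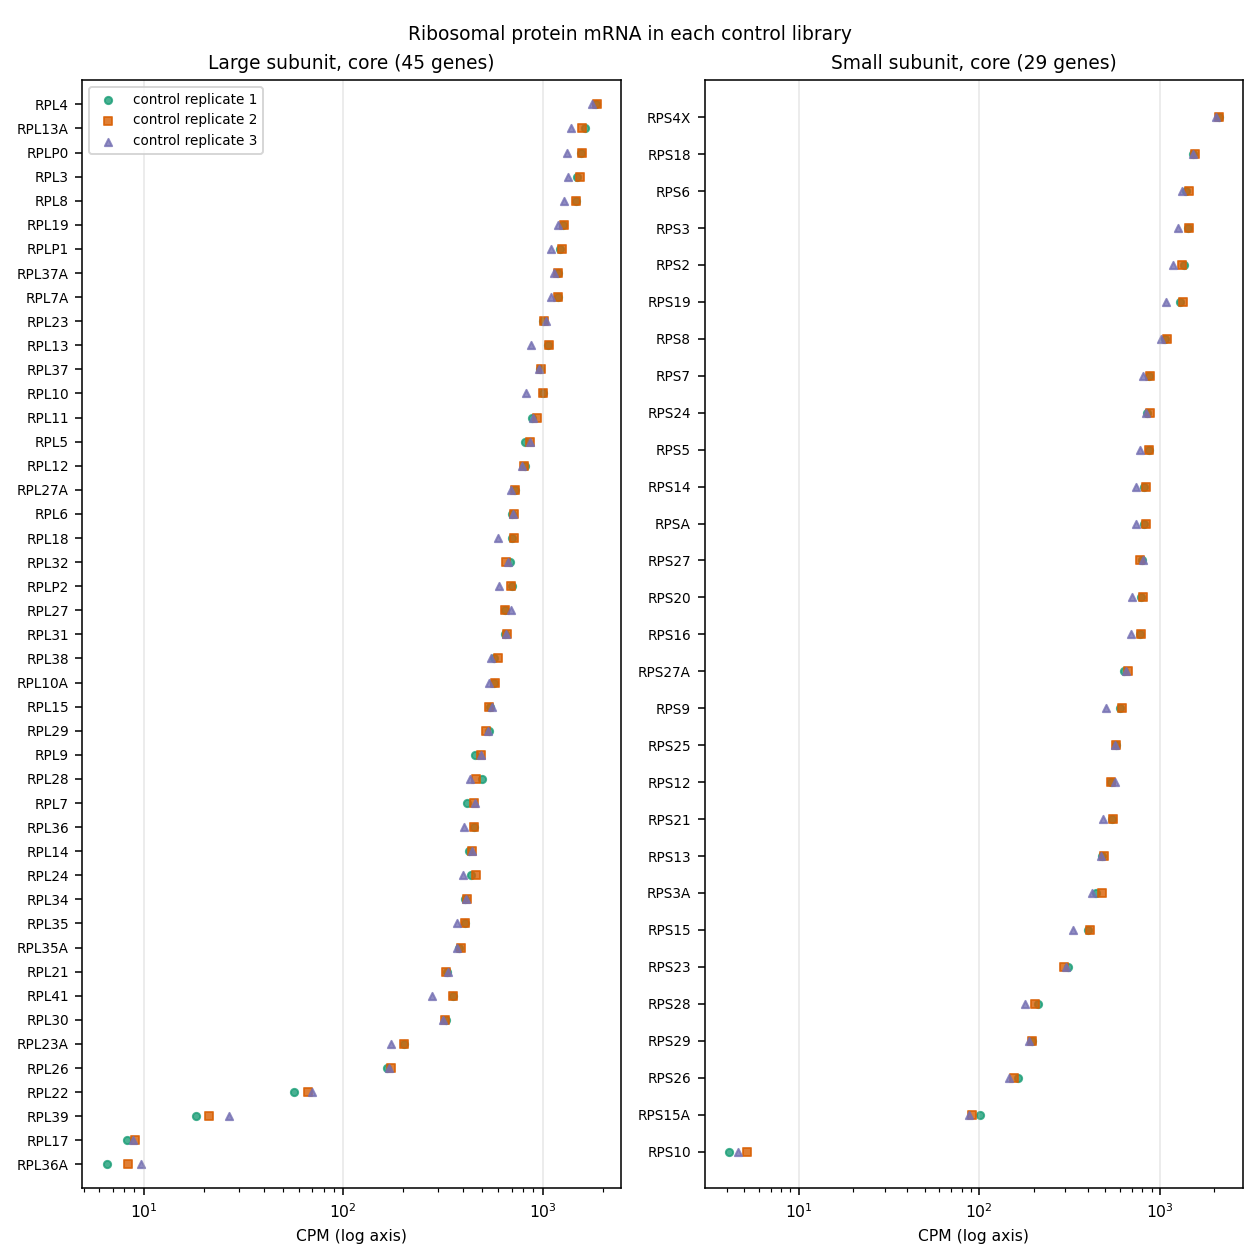
Level of core ribosomal protein genes in CPM (log axis) in control replicates 1, 2 and 3, for 45 large subunit genes (left) and 29 small subunit genes (right), ordered by mean. RPS4X is highest at 2090 CPM, and RPS10, RPL36A and RPL17 are the lowest 3, with means of 4.64 to 8.71 CPM.

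Levels of different genes were compared as CPM per kb of transcript. The length was that of 1 reference transcript per gene in GENCODE release 29. The median of the 84 genes was 703, 718 and 654 CPM per kb, a mean of 691 ± 33.4 (SD, n = 3), against 9.97 for all tested nuclear genes. It was 680 ± 35.5 for the 46 large subunit genes and 874 ± 21.1 for the 31 small subunit genes. The ratio of these medians, large over small, was 0.812, 0.810 and 0.715 (0.779 ± 0.0553) and was below 1 in all 3 libraries. The large subunit medians were 693, 708 and 640 CPM per kb and the small subunit medians 853, 874 and 895. The lower ratio in replicate 3 is one of medians, and it does not mean that small subunit genes rose there. Of these, 27 of 31 were lower in replicate 3 than in the mean of the others, where 52.0% of all tested genes were. Nor does it mean that large subunit genes fell more. The median log2 difference from that mean was -0.06 for large and -0.13 for small subunit core genes. The choice of length sets this scale, since the median was 1219 CPM per kb of coding sequence and 445 when the longest protein-coding transcript was used.

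Among the 5 highest genes per kb were RPS18, RPS27, RPL19 and RPS3. RPS18, which sits in the head of the small subunit, was at 1520, 1558 and 1520 CPM, or 2500 ± 36.1 CPM per kb. It was among the steadiest of these, with the lowest SD of the 4. RPS27, at 797, 777 and 811 CPM, reached 2214 ± 47.8 CPM per kb on a short transcript of 359 bases. RPL19 followed at 1701 ± 61.7 and RPS3, which also acts in DNA repair, at 1591 ± 125 CPM per kb. The difference between these 2 was smaller than the SD of RPS3, yet RPL19 was higher in each library. It was at 1726, 1747 and 1631 CPM per kb, against 1648, 1676 and 1447 for RPS3.

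The order changes with the length used, because several reference transcripts are far longer than their coding sequence. RPL41 codes for the shortest ribosomal protein, in 75 bases. It stood at 705 CPM per kb of its 469-base transcript and at 4411 CPM per kb of coding sequence, the highest of all 84 on that scale. RPL37 has a reference transcript of 7686 bases, and its level was 127 per kb of transcript and 3344 per kb of coding sequence. These 2 values differ by length alone, since the counts are the same.

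Among proteins of known special roles, RPS4X, a small subunit protein encoded on the X chromosome, had the highest CPM of the group, with 2113, 2119 and 2037 (2090 ± 45.7). Its level per kb was 1369 ± 29.9. RPS6, the subunit that S6 kinases phosphorylate after growth signals, was at 1400, 1454 and 1328 CPM, or 1005 ± 45.6 per kb. RPSA, also known as a laminin receptor, was at 820, 836 and 741 CPM, or 682 ± 43.6 per kb. All 3 were lowest in replicate 3.

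The acidic stalk recruits the translation factors to the large subunit. RPLP0, its base, was at 1563, 1576 and 1334 CPM, and RPLP1 and RPLP2, which bind to that base in pairs, at 1224, 1248 and 1098 and at 699, 695 and 604 CPM. Per kb these were 1224 ± 112 for RPLP0, 994 ± 67.3 for RPLP1 and 1046 ± 84.3 for RPLP2. The means of the last pair differed by less than either SD, yet RPLP2 was above RPLP1 in each library. It was at 1098, 1091 and 949 CPM per kb, against 1023, 1043 and 917 for RPLP1.

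RPL5 and RPL11 form a particle with a small ribosomal RNA that can also bind MDM2, the ligase that degrades p53. RPL5 was at 821, 869 and 865 CPM, or 828 ± 25.8 per kb, and RPL11 at 890, 933 and 900 CPM, or 893 ± 22.2 per kb. Unlike the stalk genes, neither was lowest in replicate 3. RPL10, a late-joining large subunit protein at the peptidyl transferase side, was at 1006, 1010 and 827 CPM, or 416 ± 45.8 per kb.

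RPS19, the gene most often mutated in Diamond-Blackfan anaemia, was at 1301, 1346 and 1083 CPM, or 527 ± 59.5 per kb. RPS27A, which is made as a fusion with ubiquitin, was at 636, 662 and 653 CPM, or 817 ± 16.7 per kb. FAU, which gives a small subunit protein, was at 252, 262 and 212 CPM, and RPL36AL, a relative of RPL36A, at 88.6, 99.8 and 104 CPM.

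A few core genes had very few counts. RPS10, a protein at the beak of the small subunit, had 44, 59 and 41 counts, or 4.64 ± 0.524 CPM and 7.20 CPM per kb. RPL17, at the rim of the exit tunnel, had 88, 104 and 78 counts and 13.0 CPM per kb. RPL36A had 70, 95 and 86 counts and 19.1 CPM per kb. The median of the 84 genes was 36.2 times the level of RPL36A, the highest of these 3.

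In GENCODE release 29 on GRCh38, RPS10 (ENSG00000124614.16) lies at chr6:34417454-34426125 on the minus strand and RPL17 (ENSG00000265681.7) at chr18:49488453-49492523 on the minus strand. RPL36A (ENSG00000241343.10) lies at chrX:101390824-101396154 on the plus strand. These 3 genes share exon sequence with an annotated neighbour on the same strand. RPL17 had 91.0% of its exon bases inside exons of the readthrough gene RPL17-C18orf32, RPL36A had 77.6% inside RPL36A-HNRNPH2 and RPS10 had 77.02% inside RPS10-NUDT3. A readthrough gene is an annotated transcript unit that joins a gene to the next one downstream. All of these neighbours had 0 counts in every library.

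In all, 6 core genes had at least 40% of exon bases shared in this way. RPL26 shared 59.0% with AC135178.2 and was at 291 CPM per kb, and RPS15A shared 41.5% with AC138811.2 and was at 178 CPM per kb. Both neighbours were again at 0 in every library. The median of the 6 genes was 19.9 CPM per kb, against 753 for the other 71 core genes. Another 3 genes had at least 40% of exon bases overlapped on the opposite strand and none on the same. RPL10, RPL38 and RPL30, with 55.9%, 57.8% and 47.1%, were at 416, 489 and 594 CPM per kb, each above all 6 genes with shared exons.

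Over all protein-coding genes, a larger share of those with shared exons had no counts. Of 1273 with at least 40% of exon bases shared on the same strand, 43.8% were at 0 counts in all libraries and 29.1% had at least 10 counts in each. Of 18598 below 40%, 17.8% were at 0 and 64.6% passed the minimum. With overlap on the opposite strand only, 15.3% of 354 were at 0 and 63.8% passed. EEF1G, a translation factor subunit with 99.9% of its exon bases shared, was at 0 in every library. How the authors' counting treated reads that fall in exons of more than 1 gene is not given in the sources used here, and its part in these values was not tested.

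**Figure D2:**
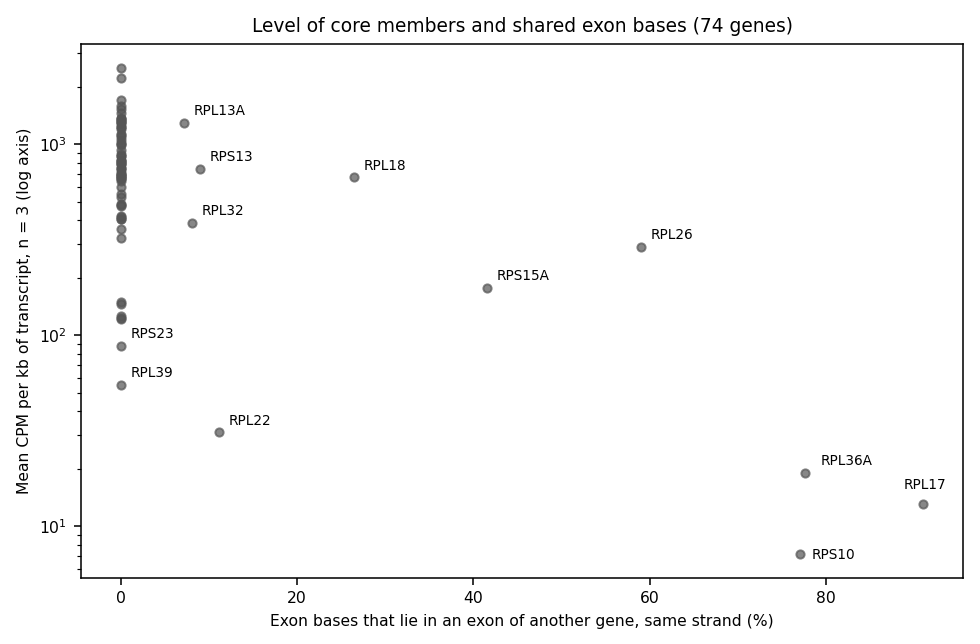
Mean level of 74 core genes in CPM per kb of transcript (log axis, n = 3 libraries) against the percent of their exon bases that lie in an exon of another gene on the same strand. Genes with a share above 5% or a level below 100 CPM per kb are labelled, and RPL17, RPL36A and RPS10 are the lowest 3.

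Not all low genes share exons to this extent. Of the 7 core genes below 100 CPM per kb, 3 did not reach 40%: RPL22 at 31.0, RPL39 at 55.2 and RPS23 at 87.8 CPM per kb. RPL22 shared 11.1% on the same strand with AL031847.2, which had 0 counts in every library. RPL39 and RPS23 shared 0% on that strand. RPS23, a protein of the decoding centre, has a reference transcript of 3437 bases, and its level per kb of coding sequence was 703. RPL22 and RPL39 were also low per kb of coding sequence, at 168 and 145.

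Ribosomal protein genes have many processed pseudogenes, copies of their mRNA set into the genome, and reads from a gene can match its copies. The table held 1600 pseudogenes of 78 of the 84 genes by symbol, whether processed or not. Of these, 1013 were at 0 in all libraries and 50 had at least 10 counts in each. Together they held 0.814, 0.787 and 0.810 counts per 100 counts of the ribosomal protein genes (0.804 ± 0.0143). The copies of RPS2 made up much of it, and without RPS2 and its copies the value was 0.472.

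One copy stood out. RPS2P5, annotated as a processed pseudogene at chr12:118246084-118246962 on the plus strand (GRCh38), had 2058, 2106 and 1507 counts, or 182 CPM. Of its 50-base windows, 57.1% are also found in RPS2. The pseudogene with the next highest count, RPL32P3, had 225, 205 and 159. It is annotated as a transcribed unprocessed pseudogene, not a processed copy. Of its 50-base windows, 0% are found in the reference transcript of RPL32.

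Relative to the gene itself, pseudogene counts were highest for genes with few counts of their own. They were 71.4, 83.2 and 72.1 per 100 for RPL36A, 44.3, 43.3 and 38.5 per 100 for RPL17, and 27.2 ± 4.35 per 100 for RPS10 (n = 3). RPS2 followed at 14.7 ± 0.263 and RPL23A at 8.42 ± 0.763 per 100, and 60 genes with pseudogenes were under 1 per 100. The first 3 are among the genes that share exons with a readthrough neighbour. The counts behind them are small, with 30 to 79 pseudogene counts per library for RPL36A and RPL17 and 10 to 19 for RPS10.

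Genes with many copies elsewhere were compared with the rest. Among the 71 core genes under 40% exon sharing, 15 had at least 50% of their 50-base windows in transcripts of other genes, and their median was 746 CPM per kb. The other 56 were at 788. Per kb of coding sequence the medians were 893 for the 15 and 1551 for the 56, so the gap depends on the length used. The share of windows is itself a percent of the reference transcript. Over the 77 core genes, log2 CPM per kb and the share of such windows had a Pearson r of -0.12 and a Spearman rho of -0.05, values across genes of the same libraries. RPL6, with 79.2% of its windows found elsewhere, was at 753 CPM per kb.

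The paralogs are close relatives of core genes, and several are known for expression in particular tissues. Of the 7, RPL7L1 had the highest CPM, at 168, 164 and 167, and RPS27L followed at 60.1, 66.5 and 74.2. RPL39L was at 36.1, 33.0 and 34.8, RPL22L1 at 29.3, 29.7 and 40.8, and RPL26L1 at 20.9, 21.6 and 21.6 CPM. The order of the first 2 held in every library, while RPL22L1 and RPL39L changed places in replicate 3.

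RPL39L, a relative of RPL39 known from testis, was close to its parent. RPL39 was at 18.3, 21.2 and 26.9 CPM, below RPL39L in each library. RPL39L made up 51.1%, 45.2% and 40.7% of the pair per kb of transcript (45.7% ± 5.21). Both genes have the same coding length, 153 bases, and per kb of coding sequence the paralog made up 66.3%, 60.9% and 56.4% (61.2% ± 4.96). Which of the pair is higher therefore depends on the length used. RPL39 is itself among the low core genes, at 55.2 CPM per kb against a median of 691 for the 84 genes. Of its 50-base windows, 36.6% are also found in transcripts of other genes, against 2.55% for RPL39L. The part of this in the counts of the pair was not tested.

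RPL22L1, the paralog of RPL22, made up 32.7%, 29.7% and 35.7% of its pair per kb of transcript (32.7% ± 2.999). RPL22 itself was at 57.0, 66.5 and 69.6 CPM. The value was 35.0% ± 3.10 per kb of coding sequence, within the spread of the first. Both genes were highest in replicate 3.

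RPL7L1 made up 9.87% ± 0.533 of its pair with RPL7 per kb of transcript. RPL7L1, which acts in large subunit assembly, has a reference transcript of 3769 bases against 1101 for RPL7, and per kb of coding sequence it made up 26.7%. RPL26L1 made up 9.23% ± 0.105 of the pair with RPL26, which itself is among the genes with shared exons. RPS27L, a p53 target, made up 0.468% ± 0.0447 of the pair with RPS27 per kb of transcript and 7.76% per kb of coding sequence, since its reference transcript has 6434 bases and its coding sequence the same 252 as RPS27.

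The muscle and testis forms were near or at 0. RPL3L, known from heart and skeletal muscle, made up 0.0191% ± 0.00572 of the pair with RPL3, which was at 1489, 1536 and 1349 CPM. RPL10L, known from testis, had no counts. A count of 0 allows up to 3 counts, or 0.263 to 0.339 CPM, and at most 0.0409% of the counts of RPL10 and RPL10L in any library, for counting error only.

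**Figure D3:**
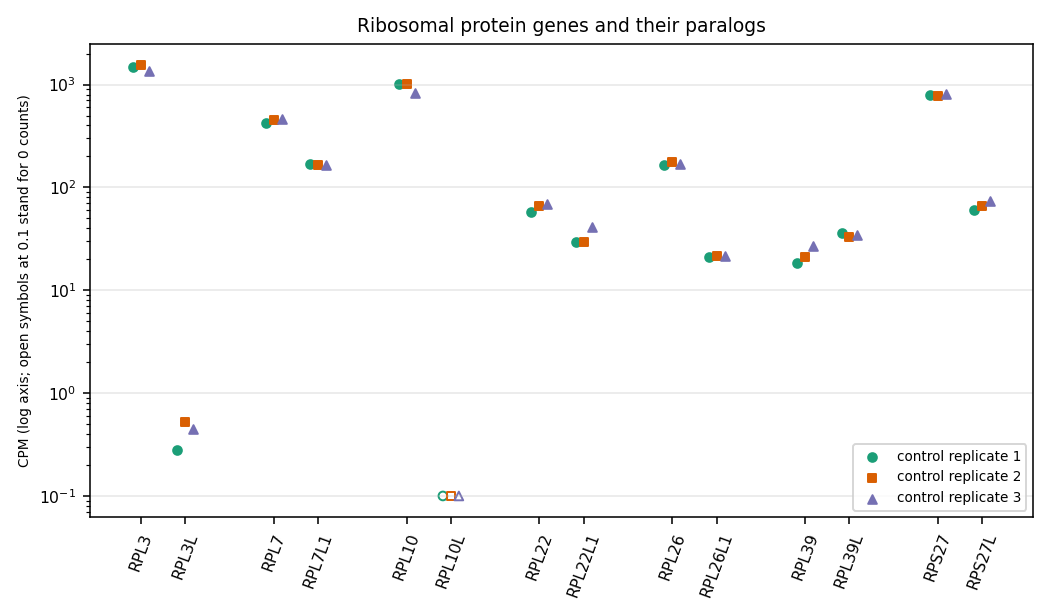
Level in CPM (log axis) of 7 core genes, each followed by its paralog, in control replicates 1, 2 and 3; open symbols drawn at 0.1 stand for 0 counts. RPL39L lies above RPL39 in all 3 libraries and RPL22L1 below RPL22, while RPL3L lies below 1 CPM and RPL10L is at 0.

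The coefficient of variation (SD over mean of CPM, n = 3) had a median of 4.76% over the 82 genes that reached the minimum and of 8.68% over all 13900 tested genes. Where the mean count was 1000 or more, it was 4.23% for the 71 ribosomal protein genes and 5.74% for all 2646. With the GC trend described below removed, these were 3.37% and 3.61%, a much smaller gap. RPL21, at 331, 329 and 334 CPM, had the lowest value (0.804%), followed by RPL34 (1.03%), RPS25 (1.15%) and RPL6 (1.18%). RPL39 (19.7%), RPL22L1 (19.6%) and RPL36A (19.4%) had the highest, and none of these had more than 361 counts in a library. Without replicate 3 the median was 1.54%.

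Replicate 3 was compared with the mean of replicates 1 and 2 on the log2 CPM scale. The median difference was -0.07 over the 82 genes and -0.01 over all tested genes. Where the mean count was 1000 or more, it was -0.09 over 71 ribosomal protein genes and -0.05 over all 2646 genes, so that highly counted genes as a whole were lower in replicate 3. It was -0.13 for the small subunit core genes, of which 27 of 31 (87.1%) were lower in replicate 3. For the large subunit core genes it was -0.06, and 29 of 46 (63.0%) were lower. Of all tested genes 52.0% were lower, and of those with a mean count of 1000 or more 61.1%. The large subunit share was close to the second of these. The 5 paralogs that passed the minimum had a median of 0.02 and none was lower. With the GC trend described below removed, 2 of them were lower. Replicate 3 had the lowest CPM of the 3 libraries for 53 of 82 genes (64.6%), against 41.8% of all tested genes. At a mean count of 1000 or more these shares were 71.8% and 54.5%.

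Few single genes moved far. In replicate 3, 3 of 82 genes were at least 25% higher, where 9.48% of all tested genes were. In the other direction, 2 were lower by the same fold, that is by at least 20%, where 8.96% of all tested genes were. Between replicates 1 and 2 these were 2 genes higher in replicate 2 against a background of 5.88%, and 0 lower against 5.83%. The counts for the ribosomal protein genes were thus below the background in each case. That background holds genes of lower level, with a median of 31.2 CPM against 587 CPM for the 82 genes. Shares past these limits were not computed at matched counts, so the gap is not shown to be particular to this group.

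The 3 genes higher in replicate 3 were RPL22L1 (log2 difference 0.47), RPL39 (0.44) and RPL36A (0.39), and RPS27L (0.23) came next. RPL36A was at 6.55, 8.31 and 9.71 CPM. Among the 2 lower ones was RPL41 (-0.35), at 357, 356 and 280 CPM. RPL13 (-0.30), at 1066, 1073 and 870 CPM, lay just inside that limit.

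The difference followed the GC content of the transcript. Across the 82 genes it had a Pearson r of -0.59 and a Spearman rho of -0.63 with GC, and across 13843 tested genes -0.54 and -0.60. These are correlations across genes of the same 3 libraries and are given as a description. A GC trend fitted on all genes was then removed from each library. The median became -0.05 over the 82 genes and 0.00 over all tested genes. The correlation across the 82 became -0.02 (Pearson) and 0.07 (Spearman), which the removal itself brings about and which tests nothing. Replicate 3 was still lower for 57 of the 82 genes, against 56 before, and for 26 of 31 small subunit core genes, against 27. Of all 13900 tested genes, 6906 were lower with the trend removed. At a mean count of 1000 or more, 1528 of 2646 genes were lower, among them 53 of 71 ribosomal protein genes. With the trend removed, 3 genes were at least 25% higher in replicate 3, where 6.32% of all tested genes were, and 0 were lower by at least 20%, where 5.09% were.

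**Figure D4:**
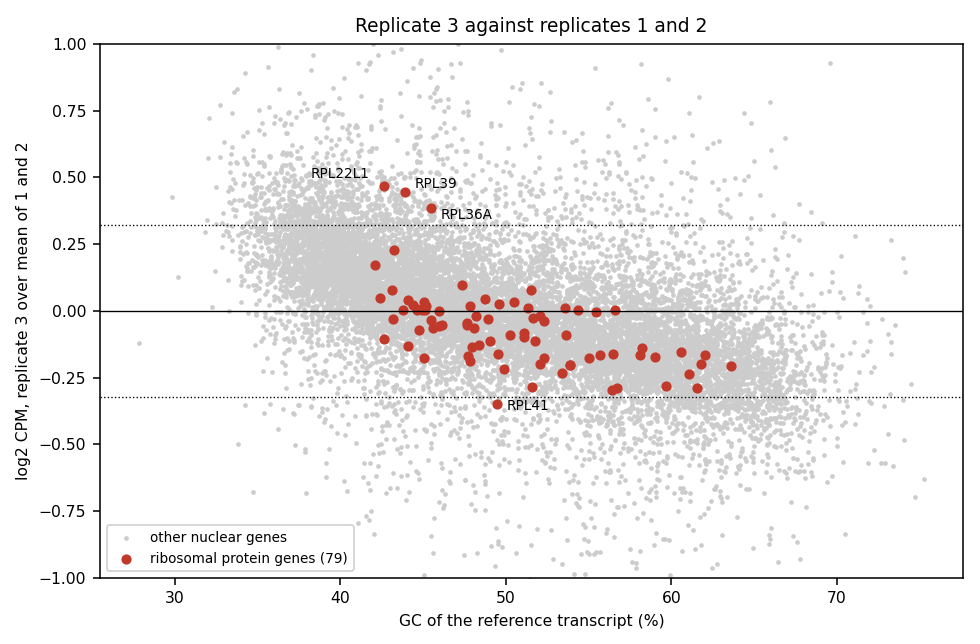
Log2 ratio of CPM in replicate 3 to the mean of replicates 1 and 2 against the GC content of the reference transcript in percent, for 79 ribosomal protein genes (red) over the other tested nuclear genes (grey); dotted lines mark 25% higher and 20% lower, and 45 genes beyond 1 on the log2 scale are not drawn. The red points fall from left to right within the grey cloud, with RPL22L1, RPL39 and RPL36A above the upper line and RPL41 below the lower one.

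Other genes of the translation machinery were read from lists chosen by function. Of 19 further genes with TOP mRNAs, mainly translation factors, 18 reached 10 counts in every library, with a median of 397 ± 10.9 CPM. EEF1A1, which brings aminoacyl-tRNA to the ribosome, was at 4138, 4126 and 4058 CPM, and EEF2, which moves the ribosome along, at 3282, 3220 and 2707 CPM. Both were above every ribosomal protein gene in each library. EEF1G, at 0, was the one that failed the minimum.

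All 37 ribosome biogenesis genes passed the minimum, with a median of 85.3 ± 4.24 CPM. NCL, the nucleolar protein nucleolin, was highest at 1059 ± 40.9 CPM and NOLC1 next at 363 ± 9.08, while NOP2, an rRNA methyltransferase, was lowest with 51, 38 and 27 counts. Of 77 genes of the mitochondrial ribosome, 75 passed, with a median of 38.9 ± 0.153 CPM, far under that of the cytosolic set. All 10 host genes of small nucleolar RNAs passed (median 51.6 CPM), led by GAS5 at 432 ± 8.13 and SNHG5 at 219 ± 5.72 CPM, with SNHG12 lowest at 25.4.

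All 17 genes of the signalling and transcription that control ribosomal protein expression passed, with a median of 79.4 CPM. EIF4EBP2, a translation repressor under mTOR, and LARP1 were highest at 379 and 358 CPM. MYCN was lowest, with 24, 27 and 15 counts. All 8 genes of the response to ribosomal stress passed (median 90.6 CPM), led by the ubiquitin ligase HUWE1 at 598 and GCN1, a sensor of stalled ribosomes, at 433 CPM. MAP3K20, a kinase activated by colliding ribosomes, was lowest at 43.0 CPM. By the same limits in replicate 3, the TOP and small nucleolar RNA host lists had no gene in either direction, the mitochondrial ribosome list had 5 higher and 5 lower, and the biogenesis list had 1 of each. These are counts out of 75 and 37 genes, where 9.48% of all tested genes were higher and 8.96% lower. The list of controlling genes and that of ribosomal stress each had 1 lower and 0 higher.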

How the data were processed

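Per the labels, poly(A) RNA was made into libraries with a stranded Illumina mRNA kit. The submitters' processing notes name fastp 0.21.1, STAR 2.7.7a, featureCounts and GRCh38, with no role or setting. The authors deposited raw counts per gene. The table lists 60710 identifiers, of which 1 gave no value, and 42060 matched a symbol. The 3 columns of other samples were not used. The members and lists were chosen with earlier results of these data known.

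Counts were scaled to CPM with TMM factors (edgeR 4.0.16, R 4.3.3), and values are means ± SD over 3 libraries of 8887854 to 11397407 counts. Genes tested are nuclear with at least 10 counts in every library. Lengths, GC and exon overlaps came from GENCODE release 29 on GRCh38, which may differ from the authors' annotation. The reference transcript was protein-coding, with the best APPRIS level, then CCDS, then transcript support, then the shortest. Starts came from RefSeq (GRCh38.p14). The GC trend was the median deviation in 50 bins over 10290 genes whose mean count was 100 or more. The statistics were tested on simulated data. Scripts used scipy 1.17.1, pandas 2.3.3 and numpy 2.4.6 in Python 3.11.15.

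Named were stalk genes, RPSA, RPS27A, RPS6, RPL5, RPL11, RPL10, RPS4X and RPS19, all paralogs with their parents, the 5 highest and lowest genes per kb, the 4 most deviating genes in each direction, the 4 with highest and lowest variation, those under 10 counts, the 5 with most pseudogene counts per 100, and the 2 highest and the lowest of each list. RPL26, RPS15A, RPL38, RPL30, RPL37, RPS23, RPS2P5, RPL32P3 and EEF1G were chosen after their values were seen. Some of the genes this rule names are not reported here, by name or in the figures, but they remain in all counts and medians.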

Additional observations from a re-analysis of the deposited data

How the results depend on the processing

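Of 108 alternative values of 17 results, 81 stayed within 1 SD of the main value or within 1.5 times a main count. For results averaged over the 3 libraries, the SD was taken over those same libraries. Leaving out 1 library could then hardly move such a result past 1 SD, so these values show little. RPL10L, at 0 counts, could not move at all. For the median replicate 3 difference and the median variation, that SD was taken over values with 1 replicate left out. For the variation it was wide, at 2.01, so a median of 3.56% with the GC trend removed stayed within it of the main 4.76%. The change for RPL39L, given below, crosses 50% and turns which gene of its pair is higher. With DESeq2-type (RLE) size factors the median difference of replicate 3 was -0.055, and with the GC trend removed -0.046. With mitochondrial genes left out of the total, the share was 5.80%, the median 601 CPM and 726 CPM per kb. Genes lower in replicate 3 numbered 0 with the GC trend removed, 1 with at least 100 counts required and 0 at 1.5-fold, where those higher were also 0. The median was 587 CPM over genes that reached 10 counts, the subunit ratio 0.696 from means, and pseudogene counts 0.676 per 100 from pseudogenes with at least 10 counts. From raw counts, the paralog's percent of its pair was 0.0288 for RPL3L, 27.3 for RPL7L1, 11.2 for RPL26L1, 61.2 for RPL39L and 7.76 for RPS27L. Leaving out 1 replicate gave a median variation of 1.54% to 5.04%, the lowest without replicate 3.

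Alternatives chosen after seeing the data gave 1219 CPM per kb from coding length and 445 from the longest transcript. Per coding length, the paralog percents were 0.0285 for RPL3L, 26.7 for RPL7L1, 11.2 for RPL26L1, 61.2 for RPL39L and 7.76 for RPS27L. Without the 6 genes that share exons, the median was 633 CPM and the subunit ratio 0.664. No paired analysis was possible because no column could be assigned to a treated sample, so the edgeR and DESeq2 tests of peptide against control, with or without a replicate block, were not run. Genes of under 100 counts per library, such as RPS10, are limited by counting error.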
